A study of Mus musculus with 5 samples.

Results

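To describe how the DNA damage machinery of mouse salivary gland organoids (mSGOs) is expressed before and after irradiation, 37 genes of DNA damage signalling and repair were followed in single-cell RNA-seq libraries. The genes were chosen by name, and all 37 stood in both gene lists, out of 31053 genes listed for the 7-day and tissue libraries and 32285 listed for the 11-day library. By route they comprised 6 genes of non-homologous end joining (Prkdc, Xrcc4, Xrcc5, Xrcc6, Lig4 and Trp53bp1), 7 of break sensing and its chromatin signal (Mre11a, Nbn, Rad50, Mdc1, H2afx, Rnf8 and Rnf168) and 6 of homologous recombination and crosslink repair (Brca1, Brca2, Palb2, Rad51ap1, Fancd2 and Fanca). The remaining members were 9 genes of base excision and single-strand break repair (Xrcc1, Lig1, Lig3, Parp1, Parp2, Ogg1, Mutyh, Apex1 and Polb), 3 of nucleotide excision repair (Ercc1, Ercc2 and Xpa), 2 of mismatch repair (Msh6 and Pms2) and 4 checkpoint kinases (Atm, Atr, Chek1 and Chek2).

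The 5 libraries held cells from submandibular salivary glands of C57BL/6 mice. One library came from untreated 7-day mSGOs, called the control. Cultures of the same age had been given 7 Gy on day 5, one as photons and the other as protons (plateau). The remaining libraries came from untreated 11-day mSGOs and from non-irradiated tissue taken fresh from the gland. All mSGOs grew in Matrigel, a gel of basement membrane proteins, in a medium with EGF, FGF2, insulin, dexamethasone, the ROCK inhibitor Y27632 and conditioned media holding R-spondin1 and Wnt3a, so the control shared this stimulated state with the irradiated cultures. Mice were 8 to 12 weeks old for the 7-day and tissue libraries, and the labels give no age for the 11-day mSGOs, which came from another batch of animals and another run. Irradiated mSGOs were collected 2 days after the dose, so values describe that time only. Cells of 4 animals stood behind a culture without a tag for the animal, and each group held 1 library. No difference was therefore tested, and each interval given below is a 95% interval for counting error alone.

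Ionising radiation breaks both strands of DNA, damages bases and leaves single-strand breaks. Double-strand breaks are found by the complex of Mre11a, Rad50 and Nbn, which recruits the kinase Atm, and the phosphorylated histone encoded by H2afx then gathers Mdc1, Rnf8 and Rnf168 around the break. End joining closes such breaks throughout the cell cycle, whereas homologous recombination needs a sister chromatid and works in S and G2 phase. Many of these proteins act through phosphorylation or recruitment, so the abundance of their transcripts is a separate quantity from the activity of a route.

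Levels are given in CPM, the sum of a gene's unique molecular identifiers (UMIs) over kept barcodes, scaled to the same total in each library. UMIs were counted at transcript ends and were not divided by length, so levels are compared between libraries for each gene and not between genes. Kept barcodes numbered 1402 (tissue) to 15610 (photons) per library, with 5932095 (tissue) to 32070703 (11-day) UMIs, and pairs of libraries shared 3 to 69 barcode sequences, at most 0.642% of a library. Barcodes that drew at least 1% of their UMIs from Malat1, a transcript kept in the nucleus, are called Malat1-rich, and their share was 16.0% in the control, 10.0% after photons, 8.95% after protons, 98.8% in 11-day mSGOs and 11.3% in tissue. Of 9 epithelial markers all were detected in every library, with a summed level of 8558 to 14687 CPM in mSGOs and 577 CPM in tissue. Acinar markers summed to 30.8 CPM in the control, 9.03 after photons, 8.35 after protons, 19.3 in 11-day mSGOs and 17888 in tissue. Among mSGOs Bhlha15 had UMIs after protons only, and Smgc and Bpifa2 were at 0. Immune markers summed to 14.5, 26.0, 23.4 and 3.18 CPM in mSGOs in the same order, with Ptprc at 0, and to 585 CPM in tissue. The acinar sum was thus lower and the immune sum higher in both irradiated libraries than in the control. Only 1 gene of each list had at least 50 UMIs in either comparison, so the sums do not describe a whole marker set. Cd3e, C1qa, Adgre1 and Nkg7 were at 0 in the control and both irradiated libraries. Lyz2 had UMIs in the control and none after irradiation. The part of these genes in the irradiation ratios was not tested. Erythroid markers summed to at most 0.0403 CPM in mSGOs and 2758 CPM in tissue. Endothelial markers summed to 2.37 to 3.71 CPM in mSGOs, with Cdh5 at 0, and 371 CPM in tissue, and fibroblast markers to 0.0633 to 0.624 CPM and 9.61 CPM.

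To see whether irradiation was accompanied by a different transcript level of the repair machinery, photon- and proton-irradiated mSGOs were each compared with the control. The summed level of the 37 repair genes was 418 CPM in the control (95% interval 408 to 428), 463 CPM after photons (455 to 472) and 449 CPM after protons (440 to 457). Both irradiated libraries thus lay above the control by more than counting error, while the spread between cultures is unmeasured. All genes had a median log2 ratio of 0.09 in both comparisons, beside 0.12 after photons and -0.02 after protons for the members. Intervals lay above 0 for 29.6% and 29.2% of all genes. Xrcc4 and Rad50 were higher after photons, Rnf8 was lower, and no member reached the fold used for a call after protons, although 4 were lower with at least 2500 genes per barcode and 4 higher when barcodes were thinned to 1000 UMIs. A log2 ratio of at least 0.5 in either direction was taken as that fold, for genes with at least 50 UMIs over both libraries.

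Of the 37 members, 32 had enough UMIs to be compared in these data, and Brca1, Palb2, Fancd2, Fanca and Mutyh did not. After photons 2 of the 32 were past the fold in the higher direction and 1 in the lower direction, against 6.71% and 2.79% of the 10530 genes compared. After protons none was past the fold, against 5.98% higher and 3.4% lower among 10442 genes. The median log2 ratio of the members was 0.12 after photons and -0.02 after protons, and that of all genes was 0.09 in both comparisons. Over the alternative settings with the median recomputed, that of the members stayed above 0 after photons, whereas after protons it was above 0 in 6 settings, up to 0.093 with a minimum of 200 UMIs. The median of all genes was also above 0 in these settings, except where ratios were taken relative to it. After protons the members' median lay below it in every setting. After photons it did so without doublet removal (0.083 beside 0.087) and with a minimum of 10 UMIs (0.036 beside 0.087). Counting intervals lay wholly above 0 for 8 members after photons and 7 after protons, and wholly below 0 for 3 and 2, where 29.6% and 29.2% of all genes lay above and 12.2% and 12.4% below. Ratios lay above 0 for 21 and below 0 for 11 members after photons (65.1% and 34.9% of all genes), and for 15 and 17 after protons (64.1% and 35.9%). Relative to the median gene, 1 member was past the fold in the higher and 4 in the lower direction after photons (4.25% and 4.43% of all genes), and none after protons (3.8% and 5.04%). In such sums over barcodes, fewer cells with a transcript and less of it per cell cannot be told apart. The photon and proton comparisons share the control library, so a low or high count of a gene in the control enters both. No member was past the fold in the same direction in both.

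**Figure D1:**
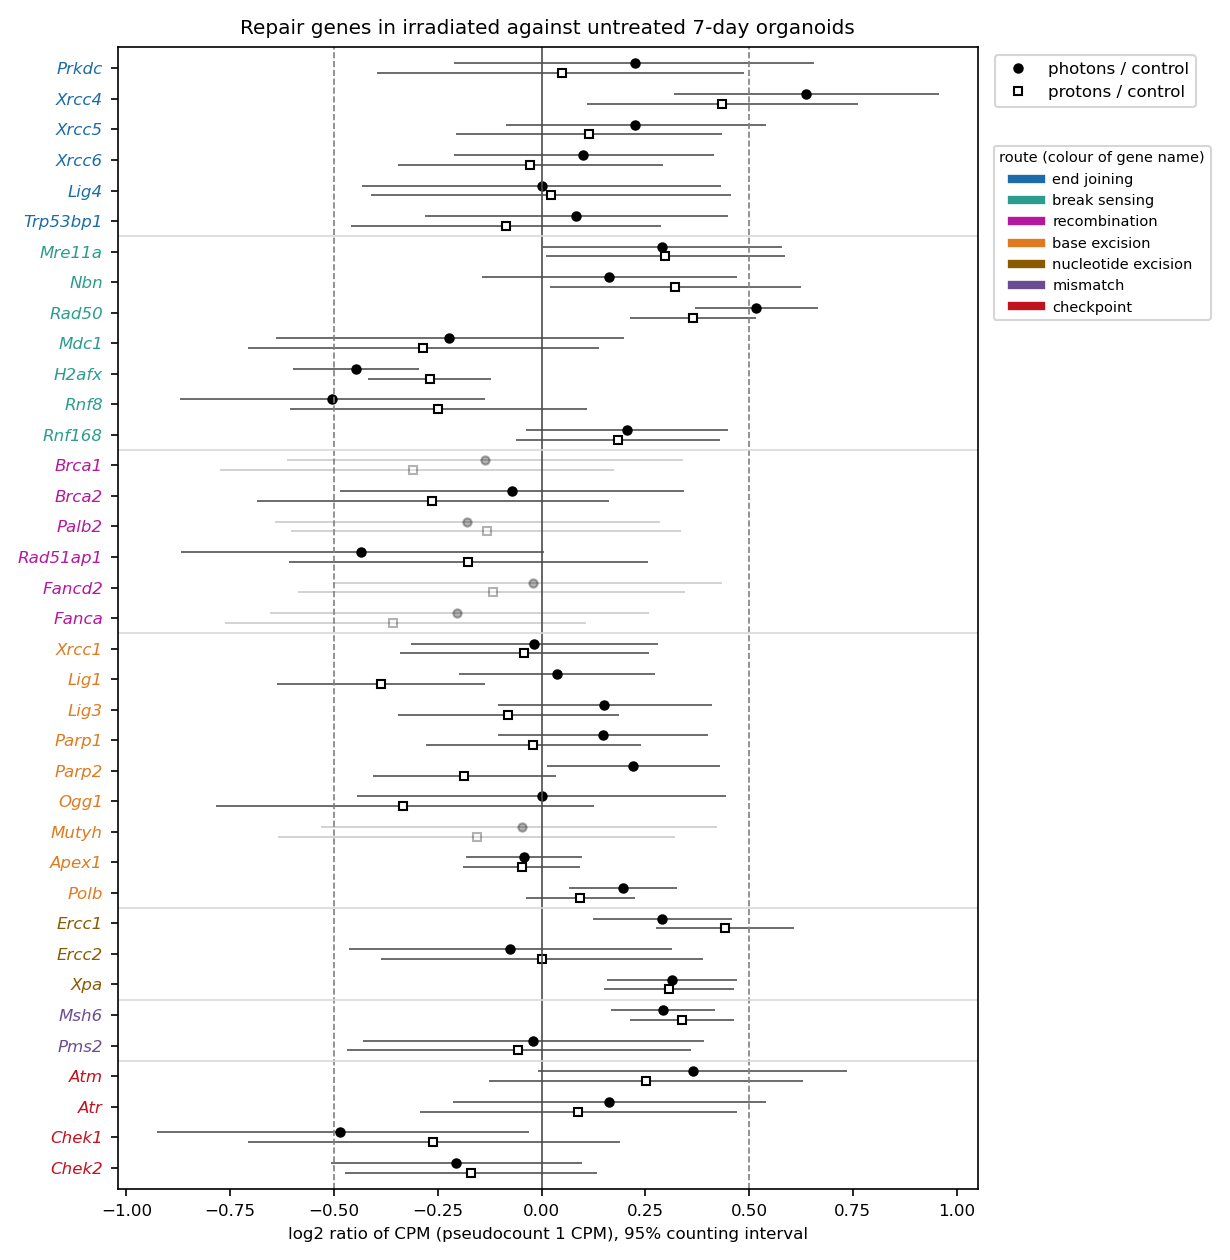
Log2 ratio of CPM of each repair gene in photon-irradiated (filled circles) and proton-irradiated (open squares) against untreated 7-day mSGOs, with 95% counting intervals as horizontal lines, dashed lines at the fold of 0.5, gene names coloured by route, and faint symbols for the 5 genes with fewer than 50 UMIs. Xrcc4 and Rad50 lie past the fold after photons at 0.64 and 0.52, Rnf8 at -0.51, and all proton symbols of compared genes lie between -0.39 and 0.44.

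In end joining, the Xrcc5 and Xrcc6 products form the Ku ring that binds a broken end, Prkdc encodes the DNA-dependent kinase recruited by it, and the ligase encoded by Lig4 seals the ends on its scaffold partner Xrcc4. On chromosome 13 (89922129 to 90237754, minus strand, build GRCm39), Xrcc4 was at 5.38 CPM in the control, 8.92 after photons, 7.62 after protons, 55.6 in 11-day mSGOs and 2.87 in tissue. Both irradiated libraries thus lay above the control, with log2 ratios of 0.64 after photons (0.32 to 0.96) and 0.44 after protons (0.11 to 0.76). In Malat1-rich barcodes they were smaller, at 0.33 and 0.13. Its partner Lig4 stood at 2.40, 2.41 and 2.46 CPM in control, photon and proton mSGOs, at ratios of 0.00 (-0.43 to 0.43) and 0.02 (-0.41 to 0.46). The other end joining genes, the Ku genes, Prkdc and Trp53bp1, whose product shields ends from resection, ranged from 0.08 to 0.23 in the photon comparison and from -0.09 to 0.11 in the proton comparison, and the counting interval of each included 0.

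Among the break sensing genes, Rad50 lay above the control and H2afx below it. Rad50 (chromosome 11, 53539837 to 53598154, minus strand), which encodes the ATPase that tethers broken ends, was at 31.8 CPM in the control, 45.9 after photons, 41.2 after protons, 90.3 in 11-day mSGOs and 12.1 in tissue. Its log2 ratio was 0.52 after photons (0.37 to 0.67) and 0.36 after protons (0.21 to 0.52), and it stayed above 0 in all 13 alternative settings, between 0.40 and 0.77 after photons and between 0.23 and 0.64 after protons. Mre11a, the nuclease of the complex, was at 7.72, 9.66 and 9.72 CPM in control, photon and proton mSGOs, with ratios of 0.29 (0.01 to 0.58) and 0.30 (0.01 to 0.59). In Malat1-rich barcodes its direction turned, to -0.11 and -0.36. Nbn, the adaptor of the complex, was at 6.77, 7.69 and 8.71 CPM, with ratios of 0.16 (-0.14 to 0.47) and 0.32 (0.02 to 0.63), and of -0.14 and 0.23 in Malat1-rich barcodes.

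H2afx (named H2ax in the annotation, chromosome 9, 44245991 to 44247374, plus strand), the variant histone that Atm phosphorylates at breaks, was lower in both irradiated libraries, in each by more than its counting error. Its level was 39.7 CPM in the control (36.7 to 43.0), 28.9 after photons (26.8 to 31.0), 32.8 after protons (30.6 to 35.1), 22.6 in 11-day mSGOs and 10.3 in tissue. The 3 intervals of the 7-day libraries placed the control above both irradiated libraries. The log2 ratios were -0.45 after photons (-0.60 to -0.30) and -0.27 after protons (-0.42 to -0.12), and they remained below 0 in all 13 alternative settings. Without the cycling barcodes described below the levels were 33.2, 27.6 and 30.2 CPM and the ratios -0.26 and -0.13.

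The other break signalling genes did not share one direction. Rnf8 (chromosome 17, 29833537 to 29863965, plus strand), a ubiquitin ligase that marks chromatin at breaks, was at 5.13 CPM in control, 3.31 in photon and 4.15 in proton mSGOs, with ratios of -0.51 (-0.87 to -0.14) and -0.25 (-0.61 to 0.11). Only 81, 84 and 103 UMIs stood behind these levels, and the photon ratio was short of the fold with 200 to 2500 genes per barcode (-0.36), with mitochondrial shares up to 10% (-0.49) and without cycling barcodes (-0.49). Rnf168, the ligase that extends this mark, lay on the other side at 11.7, 13.6 and 13.4 CPM, with ratios of 0.21 (-0.04 to 0.45) and 0.18 (-0.06 to 0.43). Mdc1, the scaffold that binds the phosphorylated histone, had 47, 61 and 56 UMIs and ratios of -0.22 (-0.64 to 0.20) and -0.29 (-0.71 to 0.14).

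The recombination genes were the most sparsely counted of the routes, and their summed level was 8.80 CPM in the control (7.39 to 10.4), 7.02 after photons (6.03 to 8.13) and 6.66 after protons (5.68 to 7.75). Brca2 (chromosome 5, 150446057 to 150496080, plus strand), a tumour suppressor gene of this route, was at 2.91 CPM in the control, 2.72 after photons, 2.26 after protons, 12.7 in 11-day mSGOs and 1.35 in tissue. Rad51ap1, which also acts in homologous recombination, was at 2.59, 1.66 and 2.18 CPM in the 7-day libraries. Its ratio of -0.44 after photons had an interval (-0.87 to 0.01) that just reached 0, and after protons the ratio was -0.18 (-0.61 to 0.26). For Brca1, its partner Palb2, and the crosslink repair genes Fancd2 and Fanca, each 7-day library held only 8 to 24 UMIs, so a difference of the size seen for other members was not detectable at this depth.

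The base excision genes did not share one direction against the control. Polb (chromosome 8, 23117532 to 23143575, minus strand), the polymerase that fills a repaired gap, was at 45.5 CPM in the control, 52.3 after photons, 48.6 after protons, 49.8 in 11-day mSGOs and 11.5 in tissue. Its ratios were 0.20 (0.07 to 0.33) and 0.09 (-0.04 to 0.23), and the photon ratio was -0.03 in Malat1-rich barcodes. Apex1, the endonuclease that cuts at abasic sites, was close to the control at 41.2, 40.0 and 39.8 CPM, with intervals that limit its log2 ratio to -0.18 to 0.10 after photons and -0.19 to 0.09 after protons. Lig1, the ligase that joins Okazaki fragments and long repair patches, was at 13.3 CPM in control, 13.6 in photon and 9.92 in proton mSGOs, so only the proton library lay below the control, at -0.39 (-0.64 to -0.14). Parp2, a sensor of strand breaks, was at 16.6, 19.5 and 14.4 CPM, which put photons above the control at 0.22 (0.01 to 0.43) and protons below it at -0.19 (-0.41 to 0.03). The scaffold gene Xrcc1 lay at -0.02 and -0.04, the sensor gene Parp1 at 0.15 and -0.02, the ligase gene Lig3 at 0.15 and -0.08 and the glycosylase gene Ogg1 at 0.00 and -0.33, each with an interval that included 0.

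In nucleotide excision repair, which removes bulky lesions, Xpa and Ercc1 lay above the control in the irradiated libraries, both of them short of the fold. Xpa (chromosome 4, 46154887 to 46196600, minus strand), which verifies the lesion, was at 30.1 CPM in the control (27.4 to 32.9), 37.6 after photons (35.2 to 40.1), 37.4 after protons (35.0 to 39.9), 47.6 in 11-day mSGOs and 7.25 in tissue. Ercc1, a subunit of the nuclease that cuts beside it, was at 25.8, 31.8 and 35.4 CPM in control, photon and proton mSGOs. The control was the lowest of the 3 for both genes, Xpa having ratios of 0.31 (0.16 to 0.47) and 0.31 (0.15 to 0.46) and Ercc1 of 0.29 (0.12 to 0.46) and 0.44 (0.28 to 0.61). Both genes stayed above 0 in all 13 alternative settings. Ercc2, the helicase of the same route, was at 3.67, 3.43 and 3.67 CPM, with ratios of -0.08 (-0.46 to 0.31) and 0.00 (-0.39 to 0.39). In the annotation, 519 of the last 1000 bases of Ercc1 lie over exons of Polr1g on the other strand, and 564 of those of Ercc2 over Klc3. Larger overlaps of this kind were found for Lig3 (1000 bases, Rffl), Fancd2 (1000, Fancd2os), Ogg1 (984, Camk1), Brca2 (974, N4bp2l1), Apex1 (898, Pip4p1) and Fanca (872, Zfp276). Whether the counting used strand is not given in the sources used here.

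Msh6 (chromosome 17, 88282418 to 88298320, plus strand), which recognises mismatched bases, was at 47.9 CPM in the control (44.5 to 51.4), 58.9 after photons (55.9 to 61.9), 60.8 after protons (57.8 to 63.9), 40.0 in 11-day mSGOs and 3.03 in tissue. Both irradiated libraries lay above the control, with ratios of 0.29 (0.17 to 0.42) and 0.34 (0.21 to 0.46). In Malat1-rich barcodes the levels were closer, at 66.8, 68.4 and 74.3 CPM, and the ratios 0.03 and 0.15. Of its last 1000 bases, 524 lie over exons of Fbxo11 on the other strand. Pms2, the endonuclease of the same route, had 47, 74 and 70 UMIs and ratios of -0.02 (-0.43 to 0.39) and -0.06 (-0.47 to 0.36).

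The 4 checkpoint kinases summed to 17.5 CPM in the control (15.5 to 19.7), 17.3 after photons (15.7 to 19.0) and 17.2 after protons (15.6 to 18.9), and their members differed in direction. Chek2 (chromosome 5, 110987826 to 111022011, plus strand), a kinase that Atm activates after breaks, was at 7.85 CPM in the control, 6.67 after photons, 6.86 after protons, 22.0 in 11-day mSGOs and 1.35 in tissue, with 7-day ratios of -0.21 (-0.51 to 0.10) and -0.17 (-0.47 to 0.13). Chek1, the kinase that answers Atr when replication stalls, had 36, 34 and 43 UMIs and ratios of -0.49 (-0.93 to -0.03) and -0.26 (-0.71 to 0.19). Atm was above the control at 3.67, 5.01 and 4.56 CPM, with ratios of 0.36 (-0.01 to 0.74) and 0.25 (-0.13 to 0.63) whose intervals included 0. Atr was at 3.73, 4.30 and 4.03 CPM, with ratios of 0.16 and 0.09. Members given with values beyond Xrcc4, Rad50, Brca2, Polb, Xpa, Msh6 and Chek2, the genes with most UMIs of their routes, were picked out after their values had been seen.

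Photon- and proton-irradiated mSGOs were next compared with each other at the same dose and time. No member was past the fold of 0.5 in either direction, against 0.723% of 10785 genes higher and 1.37% lower after protons, and the median log2 ratio of the 32 members was -0.05 beside -0.01 for all genes. Thinned to 1000 UMIs, the median of the members turned to 0.053 beside 0.016. The 8 base excision genes compared all had ratios below 0, between -0.42 and -0.0053, where 51.7% of all genes lay below 0. Lig1 was lower after protons than after photons by a log2 ratio of -0.42 (-0.64 to -0.20), Parp2 by -0.41 (-0.60 to -0.22) and Lig3 by -0.23 (-0.46 to -0.0032). For Lig1 the difference was -0.08 when barcodes were thinned to 1000 UMIs, a setting that kept 8893 photon and 6768 proton barcodes, and for Parp2 it was -0.30. Rad50 was also lower after protons at -0.15 (-0.27 to -0.03), whereas H2afx at 0.18 (0.04 to 0.32) and Ercc1 at 0.15 (0.02 to 0.29) were higher.

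To place the members among the rest of the pathway, 100 further genes of repair and checkpoint signalling were listed, of which 80 were compared with the control. After photons 10 were past the fold in the higher and 5 in the lower direction, and after protons 6 and 4, where 6.71% and 2.79% of all genes were past it after photons and 5.98% and 3.4% after protons. Relative to the median gene 5 were past the fold in the higher and 6 in the lower direction after photons, and 4 and 5 after protons. Of all genes, 4.25% and 4.43% were past it on this scale after photons and 3.8% and 5.04% after protons. Past the fold in the higher direction for both were the translesion polymerase genes Polk (15.2, 22.9 and 22.0 CPM in control, photon and proton mSGOs) and Rev1 (22.6, 34.4 and 34.3 CPM), the reversal enzyme gene Mgmt (43.1, 66.0 and 70.7 CPM), the nuclease genes Ercc5 (45.1, 70.7 and 75.2 CPM) and Ercc4 (0.886, 2.05 and 1.94 CPM), and Parp3 (3.16, 5.88 and 5.57 CPM), of which Polk and Rev1 were short of the fold in both comparisons relative to the median gene. Past it in the lower direction for both were the uracil glycosylase gene Ung (6.96, 4.38 and 4.24 CPM), the phosphatase gene Cdc25c (4.56, 2.41 and 2.54 CPM) and Clspn (3.73, 1.46 and 1.73 CPM), which helps Atr activate Chek1. By route, 4 of 17 further nucleotide excision genes were past the fold in the higher direction after photons and 2 after protons, 3 of 10 translesion and reversal genes in each comparison, and 3 and 1 of 10 compared base excision genes. Relative to the median gene these counts were 2 and 2 for nucleotide excision, 1 and 1 for translesion and reversal, and 2 and 1 for base excision. The shares of all genes were 4.25% and 3.8%. In the lower direction were 1 base excision gene in each, 3 and 2 of 13 compared checkpoint genes and 1 of 16 recombination genes in each, and none of 10 further end joining and 4 mismatch repair genes was past the fold.

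The p53 target genes, which are switched on by the damage response, had higher median ratios than the repair genes, a difference that was not tested. Of 12 listed, 5 were past the fold in the higher direction after photons and 6 after protons, with median log2 ratios of 0.38 and 0.50 and none in the lower direction, beside the 6.71% and 5.98% of all genes. Relative to the median gene 3 and 4 were past it, against 4.25% and 3.8% of all genes. Ccng1 was at 96.6 CPM in control, 186 in photon and 202 in proton mSGOs, and the ubiquitin ligase gene Mdm2 at 45.6, 69.0 and 75.9 CPM. The cell cycle inhibitor gene Cdkn1a was at 384, 447 and 502 CPM, with ratios of 0.22 and 0.39 that were short of the fold. Genes of G2 and mitosis lay the other way, with 16 of 20 past the fold in the lower direction in each comparison, against 2.79% and 3.4% of all genes, with medians of -0.82 and -0.81 and a summed level of 624 CPM in control, 382 in photon and 414 in proton mSGOs. The S phase genes, of which 20 and 19 were compared, had medians of -0.12 and -0.31.

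To describe how the members vary with the cell cycle, barcodes with at least 3 UMIs and at least 0.2% of their UMIs from the 20 S phase and 20 G2 and mitosis genes were called cycling. None of these 40 genes is a member. Such barcodes numbered 351 in the control (5.40%), 517 after photons (3.31%), 532 after protons (3.47%), 168 in 11-day mSGOs (1.77%) and 7 in tissue (0.499%). The class is a range of a score and not a cell type, and 439, 757, 723, 326 and 11 barcodes lay near its limit. Barcodes of a library are not replicates, so ratios between cycling and other barcodes are a description.

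Several members had higher levels in cycling than in other barcodes, with an interval above 0 in both the control and 11-day mSGOs. They included Rad51ap1, Brca1, Brca2, H2afx, Lig1, Chek1, Mdc1 and Chek2. Rad50 was likewise at 63.6 CPM in cycling and 29.6 CPM in other control barcodes, and at 171 and 87.9 CPM in 11-day mSGOs. Rnf168 was at 28.3 and 10.6 CPM and at 55.8 and 26.3 CPM in the same order. After protons Chek1 had 2 UMIs in cycling barcodes and a ratio of 0.24 (-1.14 to 1.75). In 11-day mSGOs, Rad51ap1 was at 48.4 CPM in cycling and 0.675 CPM in other barcodes, Brca1 at 37.9 and 0.996 CPM, and H2afx at 233 and 16.2 CPM. Their log2 ratios were 4.88 (4.38 to 5.30), 4.28 (3.73 to 4.78) and 3.77 (3.54 to 3.99), and 46 of the 67 Rad51ap1 UMIs of that library fell in its 168 cycling barcodes. Chek1 followed at 3.09 (2.53 to 3.62), Lig1 at 2.71 (2.416 to 2.999) and Brca2 at 1.76 (1.26 to 2.22), and Fancd2 and Fanca stood at 3.30 and 3.02 with 37 and 23 UMIs in all. In the control the highest ratios were those of Rad51ap1 at 2.67 (1.83 to 3.43), Brca2 at 2.50 (1.67 to 3.26), Mdc1 at 2.23 (1.35 to 3.02), Brca1 at 2.21 (1.05 to 3.14), Lig1 at 2.05 (1.57 to 2.51), H2afx at 2.02 (1.73 to 2.29) and Chek1 at 2.01 (1.00 to 2.90), whose intervals overlap. Of these, only Lig1 and H2afx had at least 50 UMIs there. H2afx was at 137 CPM in cycling and 33.2 CPM in other control barcodes.

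Some members were lower in cycling barcodes of 11-day mSGOs. There Trp53bp1 was at 6.31 CPM in cycling and 22.1 CPM in other barcodes, a log2 ratio of -1.66 (-2.81 to -0.64), Prkdc at -0.58 (-1.18 to -0.03) and Polb at -0.48 (-0.996 to -0.00057), while Xrcc4, Xrcc5, Xrcc6 and Lig4 had intervals that included 0. Over the members with at least 50 UMIs the median ratio was 0.58 in the control, 0.51 after photons, 0.33 after protons and 0.41 in 11-day mSGOs, beside 0.27, 0.12, 0.11 and -0.17 for all genes. Past a log2 ratio of 1 were 7 of 24, 4 of 30, 5 of 30 and 10 of 34 members, against 8.67%, 4.29%, 4.09% and 6.16% of all genes. These values moved with the limit of the class. At 0.1% of UMIs the medians were 0.42, 0.30, 0.094 and 0.24, beside 0.14, 0.094, 0.050 and -0.11 for all genes. Past 1 there were 3, 2, 4 and 7 members, against 2.82%, 1.80%, 1.77% and 4.03% of all genes. At 0.4% the medians were 0.41, 0.78, 0.61 and 0.44, beside 0.29, 0.23, 0.19 and -0.17 for all genes. Past 1 there were 7, 12, 10 and 10 members, against 13.6%, 17.4%, 13.2% and 6.67% of all genes. After irradiation H2afx in cycling barcodes was at 62.7 CPM (photons) and 100.2 CPM (protons), and Lig1, at 48.5 CPM in cycling control barcodes, was at 40.0 and 45.2 CPM. In tissue 31 of the 61 H2afx UMIs lay in the 7 cycling barcodes.

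**Figure D2:**
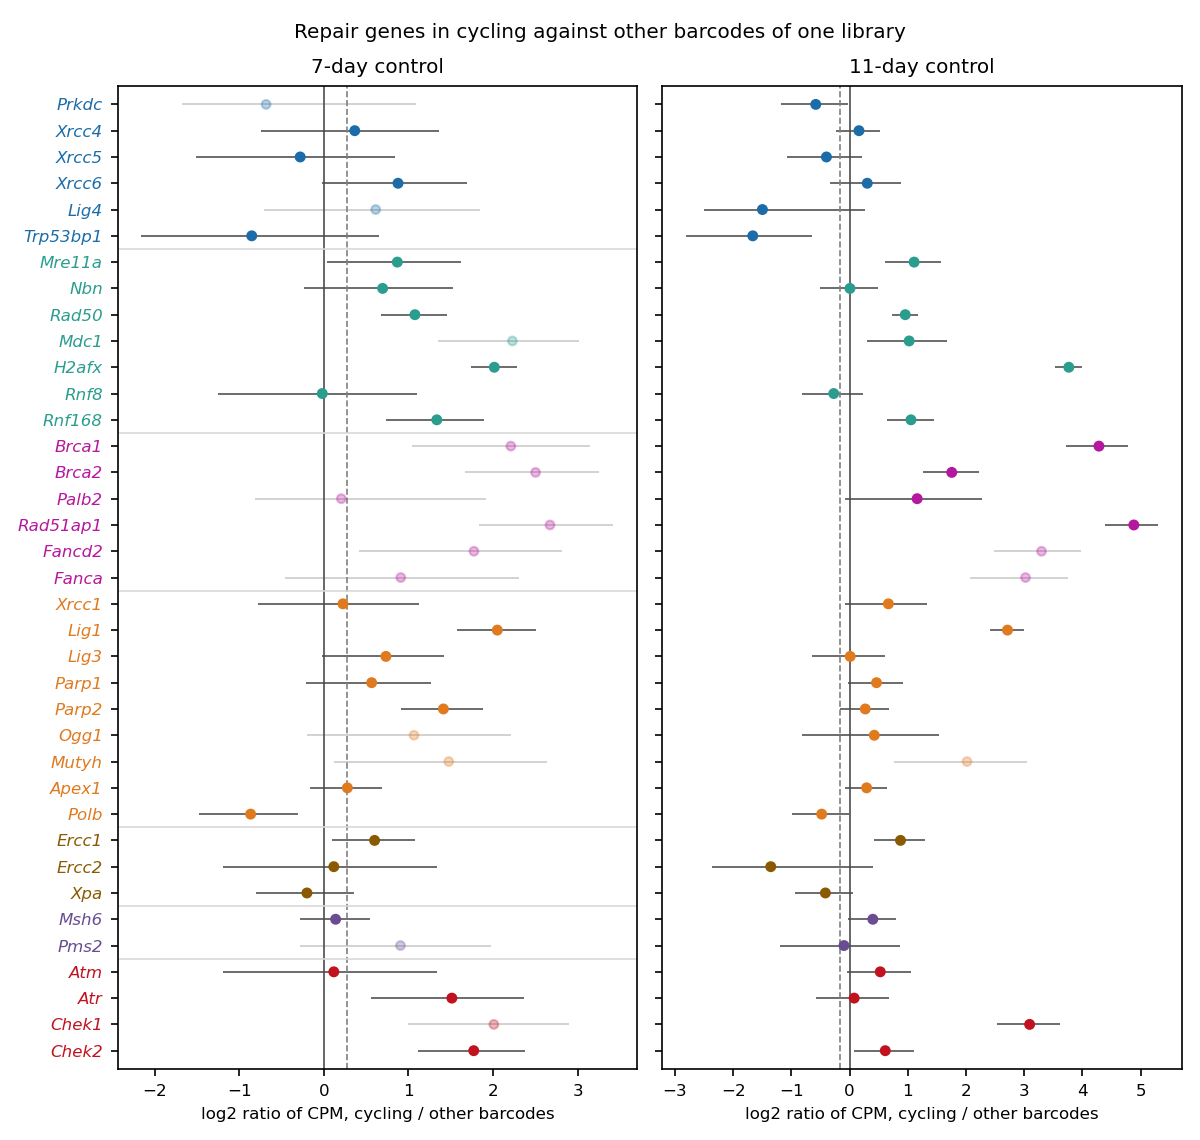
Log2 ratio of CPM in cycling against other barcodes of the 7-day control (left) and of 11-day mSGOs (right) for each repair gene, with 95% counting intervals, colours by route, a dashed line at the median of all genes (0.27 and -0.17) and faint symbols for genes with fewer than 50 UMIs. Rad51ap1 and Brca1 reach 4.88 and 4.28 in 11-day mSGOs, whereas Trp53bp1 lies at -1.66.

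Since many genes of S phase carry E2F sites, the promoters of the members were searched for such letters. RefSeq promoters (GRCm38.p6) were found for 31 of the 37 members, as 35 windows since some genes have more than 1 start, and the 250 bases before the start were read on both strands for TTTCCCGC, TTTCGCGC, TTTGCCGC and TTTGGCGC. At least 1 of these words was present in 4 of the 35 windows (11.4%), those of Xrcc6, Mdc1, Brca2 and Chek2, and in 1.86% of all 32851 windows of that table. The cell cycle homology word TTTGAA was present in 1 window (2.86%, Rnf8) and in 16.0% of all windows. The windows with an E2F word are shown with the word in capitals, which on the printed strand may read as its reverse complement, together with that of Rad51ap1, the member with the highest ratio in cycling barcodes, in which none of the words was found. The word ends 39 bases before the start in Xrcc6 (chr15:82016119-82016368, plus strand), 9 bases before it in Mdc1 (chr17:35841248-35841497, plus strand), 161 bases before it in Brca2 (chr5:150522371-150522620, plus strand) and 145 bases before it in Chek2 (chr5:110839733-110839982, plus strand), and the Rad51ap1 window is chr6:126939588-126939837 on the minus strand.
Xrcc6: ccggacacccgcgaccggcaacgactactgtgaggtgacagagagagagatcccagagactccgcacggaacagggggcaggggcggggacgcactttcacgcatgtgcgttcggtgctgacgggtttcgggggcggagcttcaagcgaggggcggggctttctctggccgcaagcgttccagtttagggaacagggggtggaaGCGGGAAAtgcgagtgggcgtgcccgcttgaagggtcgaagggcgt
Mdc1: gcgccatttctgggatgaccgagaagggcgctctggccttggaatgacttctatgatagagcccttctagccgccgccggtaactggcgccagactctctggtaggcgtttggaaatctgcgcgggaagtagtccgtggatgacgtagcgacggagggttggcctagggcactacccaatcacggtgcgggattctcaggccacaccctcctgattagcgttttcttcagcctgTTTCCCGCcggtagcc
Brca2: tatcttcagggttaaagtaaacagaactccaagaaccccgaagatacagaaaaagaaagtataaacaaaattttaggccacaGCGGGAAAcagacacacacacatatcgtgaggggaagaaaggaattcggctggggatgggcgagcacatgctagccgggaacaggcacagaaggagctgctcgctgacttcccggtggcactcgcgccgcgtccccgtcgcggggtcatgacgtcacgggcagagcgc
Chek2: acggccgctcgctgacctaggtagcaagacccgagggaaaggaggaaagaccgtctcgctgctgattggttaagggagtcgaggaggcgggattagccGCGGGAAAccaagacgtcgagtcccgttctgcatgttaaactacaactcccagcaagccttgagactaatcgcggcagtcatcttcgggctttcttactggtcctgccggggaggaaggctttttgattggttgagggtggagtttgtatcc
Rad51ap1: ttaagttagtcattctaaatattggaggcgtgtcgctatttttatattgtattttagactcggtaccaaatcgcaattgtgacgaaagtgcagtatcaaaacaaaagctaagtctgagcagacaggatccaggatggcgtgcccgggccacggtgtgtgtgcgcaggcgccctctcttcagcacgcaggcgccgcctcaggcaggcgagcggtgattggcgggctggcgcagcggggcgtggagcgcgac

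Of the genes with an E2F word, Brca2, Mdc1 and Chek2 had control ratios of 2.50, 2.23 and 1.77 (1.12 to 2.38) in cycling against other barcodes, and Xrcc6 had 0.88 (-0.02 to 1.69). In 11-day mSGOs the ratios were 1.76, 1.02 (0.30 to 1.68), 0.61 (0.07 to 1.11) and 0.30 (-0.33 to 0.88) in the same order. Rnf8, with the cell cycle homology word, had ratios of -0.02 in the control and -0.27 (-0.82 to 0.24) in 11-day mSGOs. Such a match describes letters in a window and is not evidence of binding.

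Untreated 11-day mSGOs were compared with the 7-day control to describe the members at the later stage of culture. The median log2 ratio of the 12189 genes compared was 1.00, so ratios are also given relative to this median. Of the 34 members compared, 19 were higher by a log2 ratio of at least 1 and none was lower, against 50% and 5% of all genes. Relative to the median gene, 7 were higher by at least 1 and 3 lower, against 19% and 18.1%. The median of the members was 1.16, which is 0.16 above that of all genes, and in Malat1-rich barcodes it was 0.67, which is 0.16 below the median of 0.83 there.

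Of the 34 members compared, the 7 over 1 above the median gene came from end joining, break sensing and the checkpoint kinases. Among all genes 19% lay that far above it, so the count itself is near that share. Prkdc (chromosome 16, 15455698 to 15660099, plus strand) was at 2.15 CPM in the 7-day control, 2.68 after photons, 2.26 after protons, 39.4 in 11-day mSGOs and 2.02 in tissue, and the 11-day library stood apart from the other libraries by a log2 ratio of 3.69 to the control (3.33 to 4.04), 2.69 above the median gene. Xrcc4 followed at 3.16 (2.88 to 3.43), Rnf8 at 2.68 (2.40 to 2.97), Atm at 2.25 (1.93 to 2.57), Nbn at 2.24 (1.99 to 2.50), Atr at 2.22 (1.90 to 2.53) and Trp53bp1 at 2.10 (1.80 to 2.41), all of them over 1 above the median gene. In Malat1-rich barcodes Atr was at 6.80 CPM in the control and 21.0 CPM in 11-day mSGOs, and Trp53bp1 at 5.76 and 21.8 CPM. Both were less than 1 above the median gene there, which lay at 0.83. H2afx was lower at -0.78 (-0.93 to -0.63) and Msh6 at -0.25 (-0.38 to -0.12), which is 1.78 and 1.25 below the median gene, and Rad51ap1 at -0.21 (-0.63 to 0.20) lay 1.21 below it. The G2 and mitosis genes had a median ratio of -1.67 here and 18 of 20 were past the fold in the lower direction, against 5% of all genes. Without cycling barcodes H2afx was at 33.2 CPM in the control and 16.2 CPM in 11-day mSGOs, a log2 ratio of -0.99, and the median of the members was 1.25.

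The ratio moved with the length of the gene in the genome. Over the 34 members Spearman's correlation between annotated gene span and the 11-day ratio was 0.73, and over 12143 genes it was 0.50. The 11 members of over 50 kb had a median ratio of 1.99 and the 4 of under 10 kb one of 0.53, where all genes of these sizes had medians of 1.81 and 0.32. Xrcc4 spans 316 kb, Prkdc 204 kb and H2afx 1.38 kb, while Rnf8, at 30.4 kb, lay above the median of 0.85 for genes of 10 to 50 kb. For photons against control the correlations were 0.49 over 32 members and 0.10 over 10474 genes, and for protons 0.38 and 0.08. Genes of one library share its depth and RNA, so these values are descriptions. Malat1-rich barcodes made up 98.8% of the 11-day and 16.0% of the control barcodes, the matrices name different software versions (7.0.0 and 3.0.1), and whether reads in introns were counted is not given in the sources used here. Stage, animals, run and counting cannot be told apart in this comparison.

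**Figure D3:**
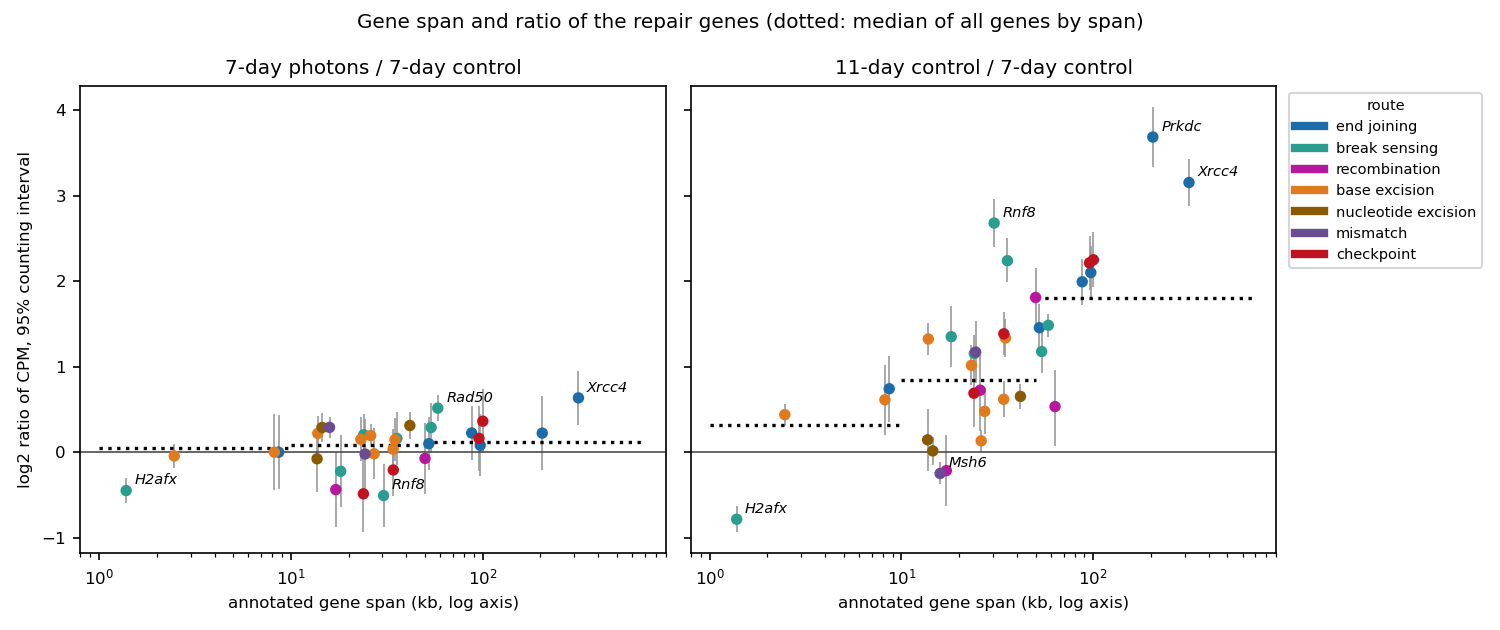
Log2 ratio of CPM with 95% counting interval against annotated gene span (log axis, kb) for the repair genes compared, coloured by route, for photons against control (left) and 11-day against 7-day untreated mSGOs (right), with dotted lines at the median of all genes of under 10 kb, 10 to 50 kb and over 50 kb. On the right the values run from -0.78 for H2afx, which spans 1.38 kb, to 3.69 for Prkdc, which spans 204 kb, whereas on the left they stay between -0.51 and 0.64.

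Fresh gland tissue was compared with 7-day mSGOs to describe the members before culture. The median log2 ratio of 9608 genes was -1.23, and the 28 members compared had a median of -0.86, which is 0.37 above it. None was higher by a log2 ratio of 1 and 12 were lower, against 7.19% and 58.1% of all genes, and relative to the median gene 4 were higher and 2 lower, against 19.5% and 19.7%. Msh6 had the lowest ratio, at 3.03 CPM in tissue and 47.9 CPM in the control (-3.60, -4.14 to -3.07), followed by Ercc1 at 4.05 and 25.8 CPM (-2.41, -2.92 to -1.91), and both lay over 1 below the median gene. Atm at 5.39 CPM (0.45, -0.09 to 0.99), Parp1 at 13.1 CPM (0.24, -0.13 to 0.61) and Rad51ap1 at 2.87 CPM (0.11, -0.53 to 0.74) had tissue levels whose ratios to the control had intervals that included 0, and lay 1.68, 1.47 and 1.33 above the median gene. Of the 17 Rad51ap1 UMIs in tissue, 11 lay in the 7 cycling barcodes, and its level in the other barcodes was 1.02 CPM. The fourth gene over 1 above the median gene was Nbn, at 6.57 CPM (-0.04, -0.52 to 0.44). Fancd2 and Mutyh had no UMI in tissue, which at 3 counts allows a level of up to 0.506 CPM, and their control levels were 0.696 and 1.012 CPM.

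The tissue library differed from the cultures in its cells as well, since acinar, immune, endothelial and erythroid markers were detected in it at the levels given above, and the part of these cells in the ratios was not tested. In the 158 Malat1-rich barcodes of the tissue, H2afx was at 44.4 CPM and Msh6 at 10.4 CPM, beside 39.5 and 66.8 CPM in such control barcodes. Msh6 thus stayed below the control there, and the sign of H2afx turned to 0.17. The median of the 19 members compared turned from -0.86 to 0.51 in these barcodes, beside -0.09 for all genes, and Rnf168 (1.21), Parp2 (0.98) and Xrcc4 (0.93) were above the control.

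**Figure D4:**
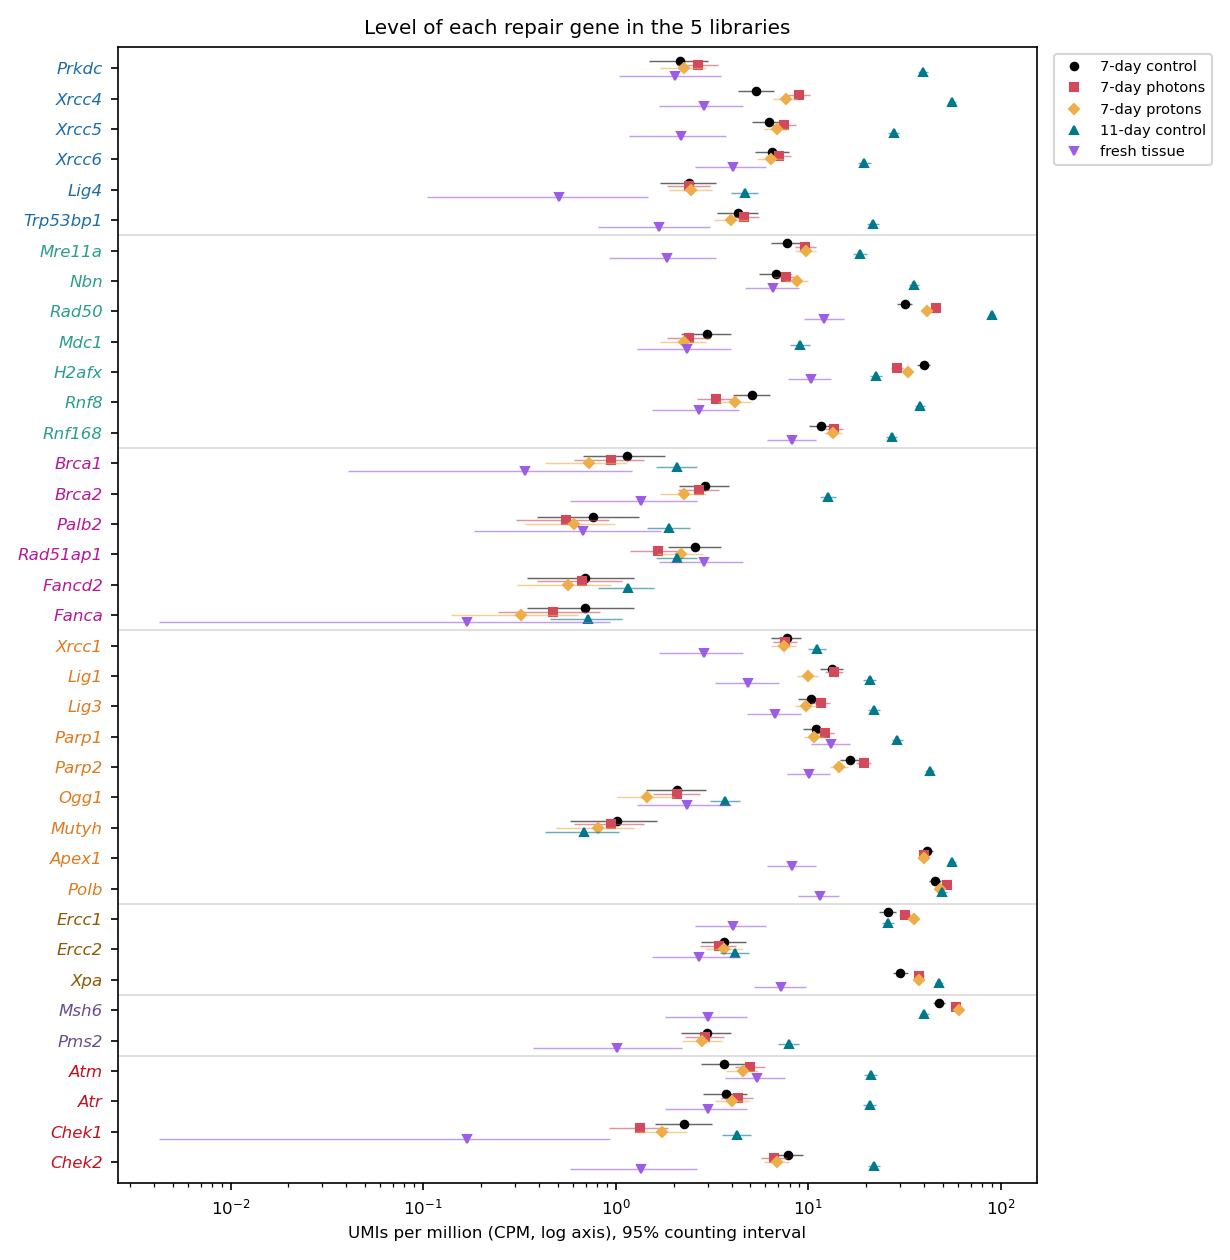
Level of each repair gene in CPM (log axis) in the 5 libraries, with 95% counting intervals as lines and gene names coloured by route. The 11-day library lies above the 3 7-day libraries for Prkdc (39.4 CPM) and Xrcc4 (55.6 CPM), tissue lies below them for Msh6 (3.03 CPM), and Fancd2 and Mutyh in tissue, at 0 UMIs, are not drawn.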

How the data were processed

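Each of the 5 libraries was made with the 10x Genomics 3′ kit from 45000 sorted propidium iodide-negative cells. The deposited values are UMI counts per gene and barcode, which the authors made with Cell Ranger: the submitters' notes name version 5 and mm10, the matrix headers name 3.0.1 (7-day and tissue) and 7.0.0 (11-day), and the study's methods name GRCm39. Whether introns and strand entered the counting is not given in the sources used here. The deposited matrices held 7151 to 19189 barcodes, each with at least 500 UMIs.

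Barcodes with at least 200 genes and at most 5% mitochondrial UMIs were kept. Scrublet's own threshold marked 0 to 10.06% of a library, so its highest scores were removed at the expected rate (0.8% per 1000 barcodes), which took out 1.13 to 14.6%. The tissue library lost 11597 barcodes with fewer than 200 genes. Counts were summed per library. Log2 ratios used CPM with 1 CPM added, for genes with at least 50 UMIs over both libraries, and intervals (95%) came from the exact binomial distribution for ratios and the exact Poisson distribution for levels. They cover counting error only. The fold was 0.5 (log2) for irradiation and 1 for the 11-day and tissue comparisons. With 1 library per group there was no test.

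Members were matched by Ensembl ID and placed on GRCm39 with GENCODE (30144 of 31053 and 31674 of 32285 IDs matched). Values in every library were given for the member with most UMIs in each route, for members past the fold in the same direction in both irradiation comparisons and for members of opposite sign with both intervals excluding 0, and further repair genes were named where past the fold the same way in both. Other members given with values, Prkdc and H2afx in every library among them, were picked out after their values had been seen. The members and lists were chosen with earlier results of these data known. Analyses used Python 3.11.15, scanpy 1.11.5, scipy 1.17.1, numpy 2.4.6 and pandas 2.3.3, and the ratio and interval code was tested on simulated data.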

Additional observations from a re-analysis of the deposited data

How the results depend on the processing

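No paired analysis was possible because each group held 1 library. Up to 13 alternative settings were tried for each value. Against the 2 higher and 1 lower members after photons and none after protons, the counts moved as follows, and the cause was not tested. With at least 2500 genes per barcode they were 1 higher and 2 lower after photons and 4 lower after protons. With 200 to 2500 genes they were 0 lower after photons and 1 higher after protons. Without doublet removal they were 2 lower after photons and 1 higher after protons, and without any barcode filter 1 was higher after protons. None (0) was lower after photons with mitochondrial shares up to 10%, without cycling barcodes or with a minimum of 200 UMIs, the last because fewer genes were compared. In Malat1-rich barcodes 0 were lower after photons, and 1 was higher and 1 lower after protons. Thinned to 1000 UMIs, 4 were higher and 0 lower after photons and 4 higher after protons. After photons, median-of-ratios scaling gave 1 higher and 3 lower, ratios relative to the median gene 1 and 4, and a pseudocount of 0.1 CPM 3 lower. At a fold of 0.3 they were 4 higher and 4 lower after photons and 6 and 2 after protons. The median of the members ran from 0.03 relative to the median gene to 0.23 with at least 2500 genes after photons, and from -0.11 relative to the median gene to 0.093 with a minimum of 200 UMIs after protons. The proton median was also above 0 without a barcode filter (0.0094), with 200 to 2500 genes (0.060), in Malat1-rich barcodes (0.011), when thinned (0.065) and without cycling barcodes (0.017), and thinning turned the proton against photon median to 0.053. In each of these settings the proton median of the members was below that of all genes.

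Among members whose interval excluded 0, directions turned for Mre11a with at least 2500 genes (-0.58 after photons, -0.72 after protons) and in Malat1-rich barcodes (-0.11 and -0.36), for Polb after photons (-0.10 and -0.025 in the same settings) and for Nbn after protons with at least 2500 genes (-0.057). The 11-day median of 1.16 was 0.70 with at least 2500 genes, where Mdc1 was at -0.24 and Lig1 at -0.068, and 1.41 with 200 to 2500 genes, 0.67 in Malat1-rich barcodes, 0.42 with median-of-ratios scaling and 0.16 relative to the median gene. Thinning put Polb at -0.061. Median-of-ratios scaling turned Xrcc1 (-0.24), Lig1 (-0.13), Apex1 (-0.34), Polb (-0.65) and Xpa (-0.12), and values relative to the median gene turned Lig4 (-0.26), Brca1 (-0.46), Palb2 (-0.27), Xrcc1 (-0.52), Lig1 (-0.38), Ogg1 (-0.39), Apex1 (-0.56), Polb (-0.87), Xpa (-0.35) and Chek1 (-0.31). The tissue median of -0.86 was -1.66 with at least 2500 genes, -1.88 when thinned, -1.59 with a minimum of 200 UMIs, 0.51 in Malat1-rich barcodes, 0.083 with median-of-ratios scaling and 0.37 relative to the median gene. In Malat1-rich barcodes the tissue ratio turned for Xrcc4 (0.93), Xrcc6 (0.66), Rad50 (0.52), H2afx (0.17), Rnf168 (1.21), Xrcc1 (0.68), Lig1 (0.048), Lig3 (0.51) and Parp2 (0.98). With median-of-ratios scaling it turned for Xrcc4 (0.36), Xrcc6 (0.56), Trp53bp1 (0.00261), Rnf8 (0.34), Rnf168 (0.77), Brca2 (0.16), Lig3 (0.65) and Parp2 (0.60), and relative to the median gene for Xrcc4 (0.51), Xrcc5 (0.042), Xrcc6 (0.65), Trp53bp1 (0.25), Rnf8 (0.50), Rnf168 (0.77), Brca2 (0.49), Xrcc1 (0.055), Lig3 (0.67), Parp2 (0.57) and Pms2 (0.25).

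Values moved by less than their counting intervals in 353 photon, 348 proton, 366 proton against photon, 294 11-day and 203 tissue cases, and by more with the direction kept, or with an interval that had included 0, in 14, 18, 13, 107 and 65. The medians of cycling against other barcodes in Malat1-rich barcodes, a setting chosen after seeing the data, were 0.68 in the control, 0.58 after photons, 0.17 after protons and 0.40 in 11-day mSGOs. Those of all genes were 0.16, 0.11, 0.068 and -0.18 in the same order. Single libraries leave the spread between cultures and animals unmeasured, and genes with few UMIs, the recombination genes above all, allow only wide intervals.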
